A study of Mus musculus with 8 samples.

Results

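Cytosines that the study listed as methylated in RNA of mast cells lacking Tet2 lay in 6 mouse genes named Zfp and a number: Zfp369, Zfp65, Zfp942, Zfp950, Zfp971 and Zfp984. A site was counted for a gene when its position lay inside the gene's RefSeq span on build GRCm38. This gave 319 of the 8492 listed sites, in 6 of the 110 genes with a listed site. The mast cells were grown from bone marrow of C57BL/6 mice with IL-3 and SCF and were wild type or Tet2-/-; the labels name neither the allele nor the age of the animals. Both genotypes were sampled in 2 biological replicates of 2 technical replicates, 8 libraries in all, made from bisulfite-converted poly(A) RNA. Tet2 is an enzyme that oxidises 5-methylcytosine. Bisulfite converts cytosine without a methyl group to uracil. A site's level, given in percent, is the part of its reads that kept cytosine, and cytosine that escaped conversion counts in it too. The deposited table gives the levels in the 4 Tet2-deficient libraries, named K1rep1, K1rep2, K2rep1 and K2rep2, where the first number was read as the biological and the second as the technical replicate. Levels in wild-type cells were not used here, and nothing below compares the genotypes. The sites were selected on their levels in these same libraries by the authors, and the genes were chosen by holding such sites, so the levels are a description without a test. The title line of the deposited values calls these sites specific to Tet2-deficient cells. The list therefore need not hold every methylated cytosine of these cells. Depth per site is unknown, and the lowest listed level in any library was 10%.

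Most genes of this name encode proteins with rows of C2H2 zinc fingers, in which each finger is folded around a zinc ion and contacts a few bases of DNA. Many of the mouse proteins also carry a KRAB domain, which binds TRIM28; TRIM28 in turn brings in the histone methyltransferase SETDB1 and heterochromatin proteins, and the complex is best known for silencing transposable elements. The genes lie in clusters that arose by repeated duplication, so that neighbours can be nearly identical in sequence. Of the 6 genes, RefSeq lists KRAB5 as another name of Zfp65 and NRIF2, a neurotrophin receptor interacting factor, as another name of Zfp369. What the other four proteins do in mast cells is not described by the labels.

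A read from a near-identical copy can be placed in the wrong gene; whether this touched the levels below was not tested. RefSeq's table for GRCm38.p6 holds a promoter window, from 250 bases before to 50 bases after the start, for 5 of the 6 genes. Each was aligned with the windows of 306 other Zfp genes. The closest relative of Zfp971 was Zfp965, which lies 2.54 Mb away on the same chromosome. Their windows, chr2:178023034-178023333 and chr2:175469775-175470074 on the plus strand, shared 291 of 300 bases. They are shown 5′ to 3′ because, of the closest pairs, they shared the largest part of the whole 300-base window. The bases that do not match are in capitals.
Zfp971: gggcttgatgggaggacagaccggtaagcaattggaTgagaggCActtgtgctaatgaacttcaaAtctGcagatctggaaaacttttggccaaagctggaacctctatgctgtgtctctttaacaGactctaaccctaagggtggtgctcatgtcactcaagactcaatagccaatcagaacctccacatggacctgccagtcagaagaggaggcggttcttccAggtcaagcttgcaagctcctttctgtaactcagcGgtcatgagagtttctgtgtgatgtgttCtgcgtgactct
Zfp965: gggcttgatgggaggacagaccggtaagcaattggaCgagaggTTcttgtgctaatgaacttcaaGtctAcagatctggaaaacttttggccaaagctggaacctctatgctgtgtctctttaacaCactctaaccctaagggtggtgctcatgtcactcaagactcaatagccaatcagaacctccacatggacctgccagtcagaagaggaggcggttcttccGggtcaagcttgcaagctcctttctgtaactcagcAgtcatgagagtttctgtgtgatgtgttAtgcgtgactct
Only 9 bases differ between the windows. Zfp965 had 0 listed sites in its span, while Zfp971 had 9.

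The closest relative of Zfp942 was Zfp944, 0.376 Mb away on chromosome 17. Their windows, chr17:21962415-21962714 and chr17:22361351-22361650 on the minus strand, are shown because they are the same stretch apart from their ends; capitals mark bases without a match.
Zfp942: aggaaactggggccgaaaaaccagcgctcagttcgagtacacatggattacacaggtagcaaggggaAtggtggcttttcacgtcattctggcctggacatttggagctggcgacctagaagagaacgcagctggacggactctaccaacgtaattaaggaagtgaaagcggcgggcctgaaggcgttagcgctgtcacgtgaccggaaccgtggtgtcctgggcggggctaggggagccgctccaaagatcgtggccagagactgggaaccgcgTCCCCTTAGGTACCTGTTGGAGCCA
Zfp944: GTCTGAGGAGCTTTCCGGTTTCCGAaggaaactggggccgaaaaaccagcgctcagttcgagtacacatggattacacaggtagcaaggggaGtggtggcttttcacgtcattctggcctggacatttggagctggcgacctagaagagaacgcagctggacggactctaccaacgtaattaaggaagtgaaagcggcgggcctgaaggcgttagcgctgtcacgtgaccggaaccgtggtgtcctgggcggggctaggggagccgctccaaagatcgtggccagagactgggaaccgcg
Over the 275 bases that could be aligned, 274 were the same, and the long ends in capitals are where one window reaches beyond the other. Zfp944 had 0 listed sites. Zfp984 was closest to Zfp981 (82.7% of bases the same), Zfp950 to Zfp968 (74.7%) and Zfp65 to Zfp748 (69.7%), none of which had a listed site. For comparison, the median over all 306 windows lay between 57.0% and 59.2% for each of the 5 genes, and the 10 pairs among the 5 genes shared 57.7% to 69.0%. For each of the 5 genes the closest relative was not another of the 5. It was picked as the most alike of 306 windows, the other members among them. It could therefore not be less alike than they were. That these relatives have no listed site is the usual case, since only 6 of 372 Zfp genes have one. Windows say nothing of likeness at the sites themselves, whose sequence was not analysed here.

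The sites of each gene occupied a small part of its span. Together they fell into 13 regions, a region being a run of sites up to 500 bases apart, numbered by coordinate within a gene, which covered 4282 bases. No other annotated gene overlapped the sites. Zfp369 spans chr13:65277228-65304222 and had 150 sites in 4 regions between 65298597 and 65302668. Zfp942 spans chr17:21926960-21962503 and had 81 sites in 2 regions, and Zfp984 spans chr4:147753974-147812229 and had 45 sites in 4 regions. These 3 genes held all the regions beyond the first of a gene.

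The other three genes had a single region each. Zfp65, chr13:67705306-67729178, had 23 sites within 360 bases. Zfp950, chr19:61053840-61140844, had 11 sites within 100 bases of a span of 87.0 kb. Zfp971, chr2:178023284-178035859, had 9 sites within 247 bases. The covered share of the span ran from 0.115% in Zfp950 to 6.00% in Zfp369.

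Measured along the genome from the annotated start, in the direction of transcription and with introns included, the sites lay at very different distances. Those of Zfp950 were nearest, 3077 to 3176 bases downstream, and those of Zfp971 lay 6910 to 7156 bases downstream. The Zfp984 sites lay between 8110 and 12685 bases. In Zfp942 the regions began 17223 and 23953 bases downstream, and in Zfp65 the sites lay 22342 to 22701 bases downstream, close to the far end of the span. No start was given for Zfp369, whose sites lay 1554 bases or more from the higher-coordinate end. None of the 307 promoter windows of Zfp genes in the table held a listed site. Nothing is read from this, since most of each window lies before the start and the sites were measured in RNA. Exons, introns and untranslated regions were not analysed here, and a site within a span need not lie in the mature mRNA.

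**Figure D1:**
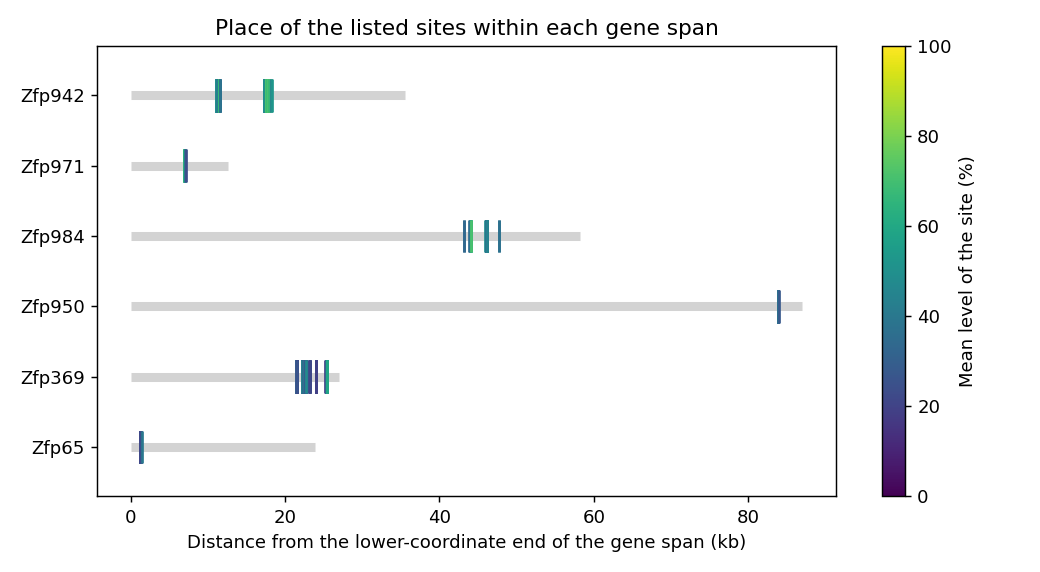
Place of the listed sites (vertical ticks, coloured by the mean level in percent) within the span of each of the 6 genes (grey bar), as distance in kb from the lower-coordinate end. Sites sit in a few narrow regions, 1 each in Zfp65, Zfp950 and Zfp971, and the span of 87.0 kb of Zfp950 holds a single region of 100 bases.

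Nothing listed lay just outside the spans of these genes, so the sites counted for them do not hang on where a span ends. Whether other Zfp genes had a listed site just outside their spans was not analysed here. The nearest listed site outside a span was 624 kb from Zfp984, 863 kb from Zfp942 and between 2402 kb and 23350 kb from the other genes. The site nearest to the edge inside a span was 1166 bases from it, in Zfp65.

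Among all RefSeq genes named Zfp and a number, 6 of 372 had a listed site (1.61%). Among all protein-coding genes it was 96 of 21900 (0.438%). The 6 genes were chosen for having sites, so nothing is read from that contrast. Median spans were 18.0 kb for the Zfp genes and 31.3 kb for the 6 with sites. Within 1 Mb of Zfp65 lay 18 other Zfp genes, 19 lay near Zfp942, 9 near Zfp984 and 3 near Zfp971, and 0 of them had a listed site, a count near the share of 1.61% over all genes of this name. Zfp369 and Zfp950 had no Zfp gene within 1 Mb. Of 20 partners in KRAB-dependent silencing, Trim28 and Setdb1 among them, 0 had a listed site, and of 12 mast cell markers only the granule carboxypeptidase Cpa3 had one. No listed site can also mean too few reads, and the table gives no RNA amounts by which to check the labelled cell type.

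Levels differed between the genes. Over the 319 sites the mean was 40.5% ± 1.30 (SD, n = 2 biological replicates), beside 52.2% ± 0.211 over the other 8173 sites. Much of this gap comes from regions with many sites. With each region counted once, the mean was 39.2% over the 13 Zfp regions, beside 42.2% over all 259 regions. Zfp942 was highest at 58.5% ± 1.64, followed by Zfp971 at 53.0% ± 3.55 and Zfp984 at 43.5% ± 1.88 (SD, n = 2 for each). Zfp950 stood at 37.1% ± 2.22, Zfp369 at 32.5% ± 4.15 and Zfp65 at 20.2% ± 2.88 (SD, n = 2 for each). Zfp65 had the lowest level of the 53 genes with 10 or more sites, although its only site without a listed neighbour within 10 bases stood at 39.98%, above the 30.6% of such sites in Zfp369. In the same order of 53 genes Zfp942 was the 16th highest; the median of those genes was 48.2%. Since Zfp369 holds 150 of the 319 sites, it sets the joint mean: the other five genes averaged 47.6%.

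The values by library show how far this order holds. Zfp942 read 55.0% in K1rep1, 59.6% in K1rep2, 58.4% in K2rep1 and 60.8% in K2rep2. Zfp971 read 59.9%, 41.1%, 47.0% and 64.1% in the same order, the widest range of the 6 genes and on the fewest sites. Zfp984 read 45.2%, 39.1%, 41.5% and 48.1%. In Zfp971 and Zfp984 K1rep1 and K2rep2 were above the other libraries, so that the upper pair came from different biological replicates.

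Zfp950 read 37.4%, 33.7%, 43.3% and 34.0%. Zfp369 read 40.8%, 30.02%, 28.9% and 30.3%, so that K1rep1 stood apart from the other three, which were nearly level. Zfp65 read 27.7%, 16.7%, 16.7% and 19.5%, again with K1rep1 highest. Of the 15 pairs of genes, 9 had library ranges that did not overlap. The share among pairs of other genes was not computed, so this count only describes these genes. Zfp65 lay below every other gene in this sense, with 27.7% as its highest library against 28.9% as the lowest of Zfp369. Zfp942 lay above all but Zfp971. Every other neighbouring pair in the order overlapped, and so did Zfp984 with Zfp369 and Zfp971 with Zfp950.

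**Figure D2:**
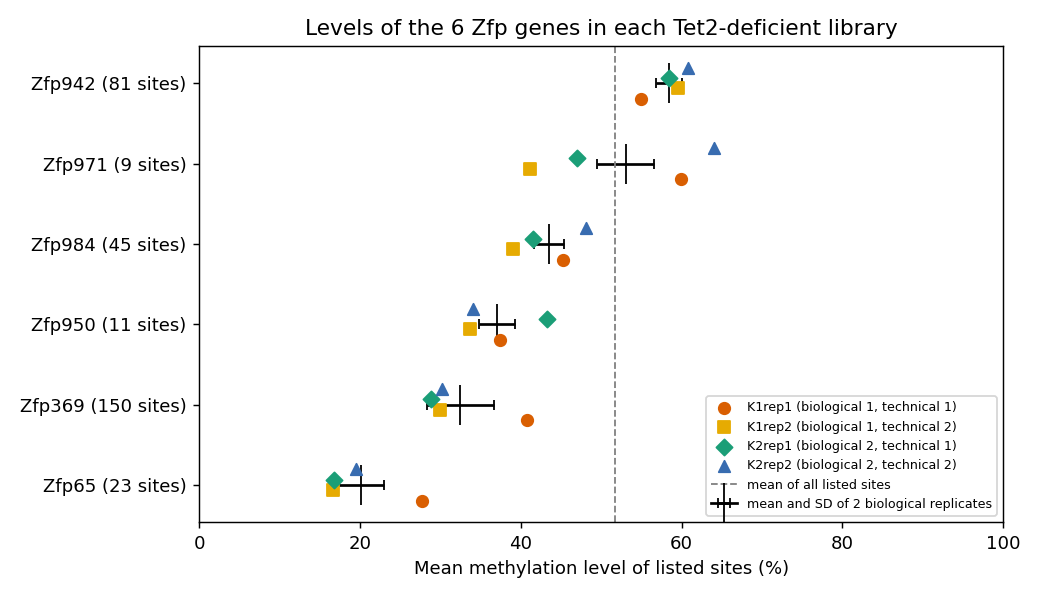
Mean level of each Zfp gene's sites in percent on the horizontal axis; coloured symbols are the 4 Tet2-deficient libraries, the black tick and bar are the mean and SD of 2 biological replicates, and the dashed line is the mean of all listed sites, 51.7%. Zfp65 lies lowest at 20.2% and Zfp942 highest at 58.5%, and Zfp971 has the widest spread of libraries, 41.1% to 64.1%.

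Single sites ranged more widely within some genes than the gene means did. In Zfp942 the site means ran from 28.3% at 21938508 to 86.4% at 21938424, and 35 of 81 sites were at 50% or more in every library. The highest site read 100%, 83.3%, 76.5% and 85.7%. In Zfp369 they ran from 12.2% at 65302467 to 61.4% at 65302665, and 0 of 150 sites were at 50% or more in every library. That lowest site read 12.5%, 11.8%, 10.7% and 13.6%, close to the minimum of the table in each library. In all, 39 of the 319 sites (12.2%) were at 50% or more in every library, beside 34.4% of the other listed sites. Apart from Zfp942, these were 3 sites of Zfp971 and 1 of Zfp984.

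Zfp65 sites ran from 12.2% at 67706481 to 39.98% at 67706831. Of its 23 sites, 6 were under 20% in every library, against 5 of 150 in Zfp369 and 0 in the remaining genes. Over all listed sites it was 208 of 8492 (2.45%). The highest site of Zfp65 read 62.5% in K1rep1 and 30.8% to 33.3% in the other libraries. It lies 243 bases from its nearest listed neighbour, while the other 22 sites lie within 117 bases at 19.3% ± 2.51 (SD, n = 2). Zfp950 was the most even gene, with sites from 27.5% at 61137763 to 44.0% at 61137664, and Zfp971 ran from 22.9% at 178030440 to 72.5% at 178030194. In Zfp984 the sites ran from 20.2% at 147800050 to 71.4% at 147798115, the latter at 80% to 85.7% in the other three libraries and 40% in K1rep2.

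The regions of Zfp369 did not share a pattern across the libraries. Region 1, with 23 sites from 65298597 to 65298786, read 41.6%, 24.1%, 24.4% and 37.0% in K1rep1, K1rep2, K2rep1 and K2rep2. Region 4, with 37 sites from 65302394 to 65302668, read 45.4%, 23.2%, 21.4% and 40.3%. In both, K1rep1 and K2rep2 were well above the other libraries and their biological means were close, at SDs of 1.51 and 2.42 points.

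The largest region of Zfp369, region 2 with 80 sites from 65299380 to 65300484, read 41.3%, 36.1%, 35.0% and 24.7%. Here K2rep2 was lowest rather than high, and the biological replicates differed more, with an SD of 6.28 points. Region 3 was low and even, with 10 sites in 51 bases at 18.5%, 19.9%, 18.0% and 21.8%. Its site means ran only from 14.6% to 21.6%. The mean of K2rep2 over Zfp369, close to those of K1rep2 and K2rep1, thus joins regions in which it was high with a region in which it was low.

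Levels changed along the regions of Zfp369 as well. In region 4, with bins of 100 bases from its first site, the level was 16.6% ± 0.854 over 9 sites, 30.3% ± 4.15 over 18 sites and 51.0% ± 0.720 over 10 sites (SD, n = 2). The order of these bins was the same in each library: K1rep2 read 12.7%, 19.5% and 39.5%, and K2rep2 read 17.8%, 36.4% and 67.5%. Region 1 went the other way, from 40.4% ± 2.00 over 10 sites to 25.1% ± 4.21 over 13 sites, and this order too held in each library. The bins were chosen after the values were seen, and neighbouring sites share reads.

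**Figure D3:**
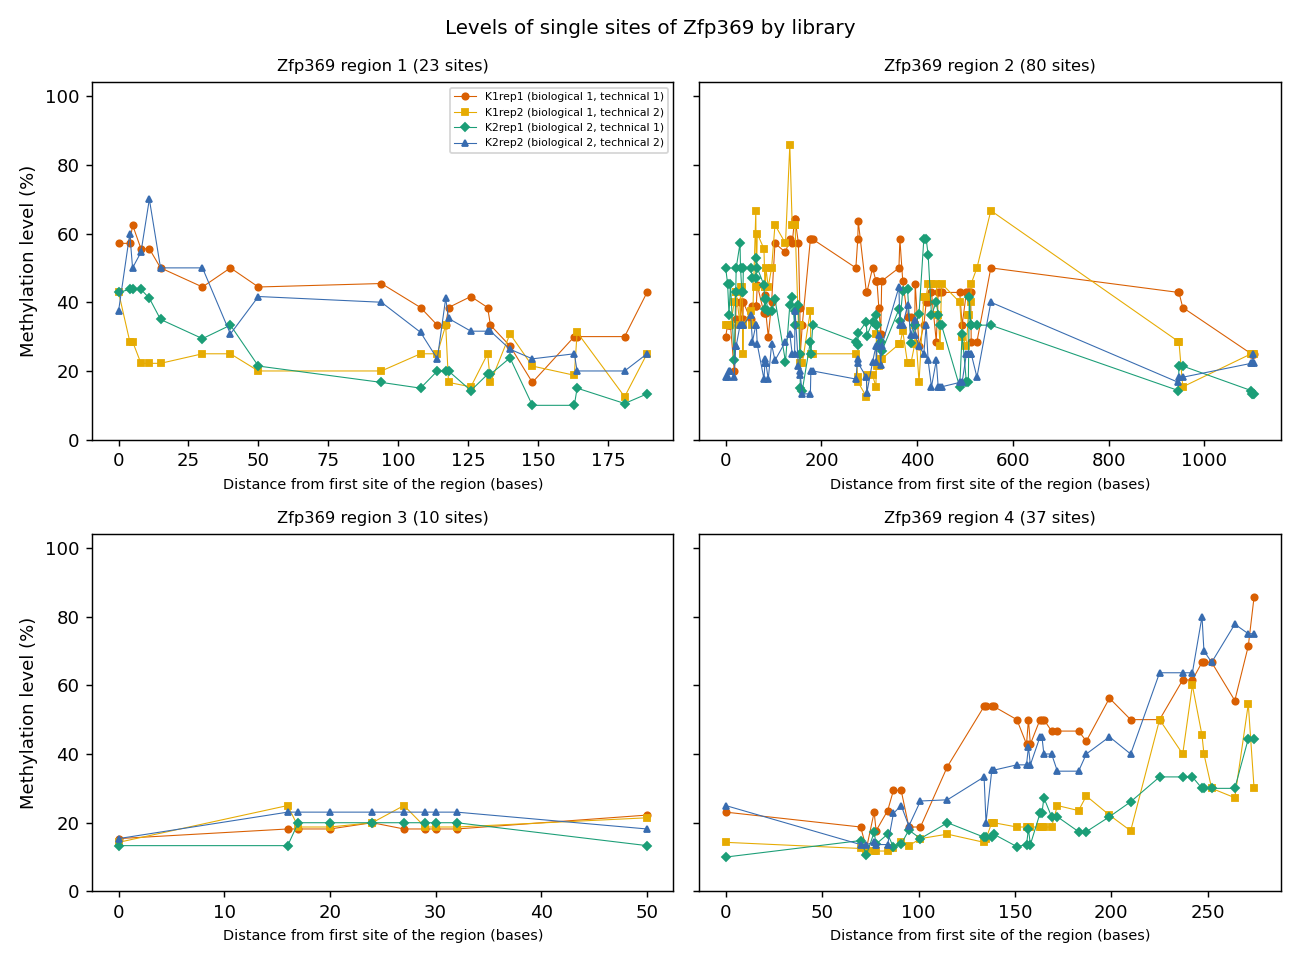
Methylation level in percent of single sites (vertical axis) against the distance in bases from the first site of the region (horizontal axis) for the 4 regions of Zfp369, with a coloured line and symbol for each library. Region 4 climbs from 16.6% to 51.0% between its first and last 100-base bin, and region 3 stays near 19.6% in every library.

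Zfp942 had 2 regions whose libraries ranked in opposite ways. Region 1, with 46 sites from 21938042 to 21938511, read 57.5% in K1rep1, 60.5% in K1rep2, 53.7% in K2rep1 and 47.5% in K2rep2. Region 2, with 35 sites from 21944181 to 21945241, read 51.8%, 58.4%, 64.6% and 78.3%. Biological replicate 1 was above replicate 2 in region 1 and below it in region 2, with no overlap of libraries in either, which was also the case in 34.0% of all 259 regions. The opposite gaps largely cancel in the gene mean, so that the small SD of the gene, 1.64 points, hides SDs of 5.94 and 11.6 points in its regions. With 1 biological replicate on each side, these gaps have no test. Site by site, the technical replicates of region 2 differed by 21.75 points on average, beside 24.0 points for libraries of different biological replicates. In region 1 these values were 15.9 and 15.6 points.

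Within region 2 of Zfp942 the library K2rep2 read close to 100% over a middle stretch. Neighbouring sites share reads and depth is unknown, so how few reads lie behind these levels cannot be stated. With sites up to 100 bases apart joined, the stretch from 21944457 to 21944555 had 15 sites at 54.0%, 69.3%, 61.2% and 99.05% in the 4 libraries. The next stretch, from 21944782 to 21944817, had 9 sites at 48.9%, 57.0%, 78.8% and 93.1%. On both sides of them K2rep2 was low, at 33.7% over 7 sites before and 45.0% over 4 sites after. K2rep2 read exactly 100% at 19 of the 81 Zfp942 sites, against 4 in K1rep1, 2 in K1rep2 and 0 in K2rep1. In the table as a whole the number of sites at 100% was 634 in K2rep2 and 624 in K1rep1. None of the other five Zfp genes had a site at 100% in any library.

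Region 1 of Zfp942 was uneven along its length. The stretch from 21938042 to 21938239 had 21 sites at 44.3% ± 3.68, and the stretch from 21938343 to 21938511 had 25 sites at 63.6% ± 7.85 (SD, n = 2). In the first of these K2rep2 was lowest at 31.8%, and in the second K2rep1 was lowest at 55.4%. Every library was higher in the second stretch than in the first. The second stretch nevertheless held the lowest site of the gene, 28.3% at 21938508.

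**Figure D4:**
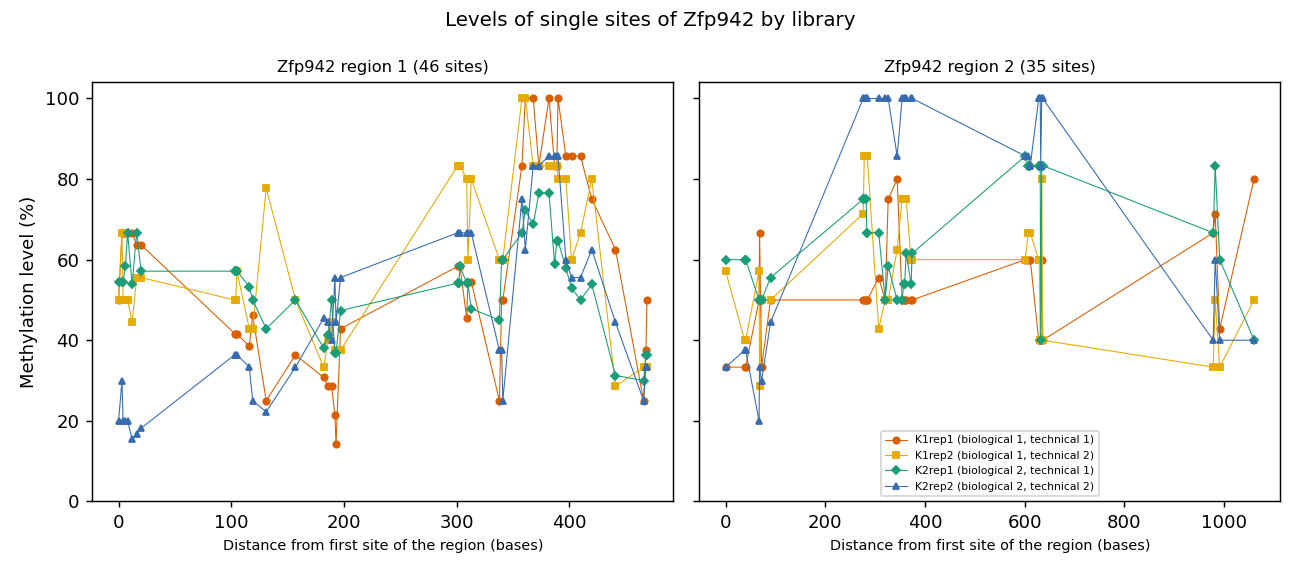
Methylation level in percent of single sites (vertical axis) against the distance in bases from the first site of the region (horizontal axis) for both regions of Zfp942, by library. K2rep2 averages 99.05% and 93.1% over the middle stretches of region 2, where the stretches of K1rep1 average 54.0% and 48.9%, and it is the lowest library of region 1 at 47.5%.

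Zfp984 had a single dense region and 3 sparse ones. Region 3, with 33 sites in 155 bases from 147799937 to 147800091, was the densest of the 9 Zfp regions with 10 or more sites, at 21.3 sites per 100 bases. It read 44.2%, 37.5%, 40.5% and 49.5%. Region 2, with 8 sites from 147797854 to 147798115, read 58.4%, 41.7%, 56.8% and 43.1%, so that technical replicates lay far apart while the biological means were 50.1% and 49.99%. Regions 1 and 4 had 2 sites each and spread most widely. Region 1, at 147797103 and 147797104, read 57.1% in K1rep2 and 22.2% to 28.6% in the others, and region 4, from 147801675 to 147801678, ran from 16.7% in K2rep1 to 64.3% in K2rep2.

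Neighbouring sites of Zfp984 often had the same level in every library, to within 0.0001 points. This was so for 8 of 41 pairs of neighbours (19.5%), beside 7 of 79 in Zfp942, 4 of 146 in Zfp369 and 0 in the other three genes. Over all listed sites it was 445 of 8233 pairs (5.41%). Such pairs share reads and count as less than separate measurements.

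**Figure D5:**
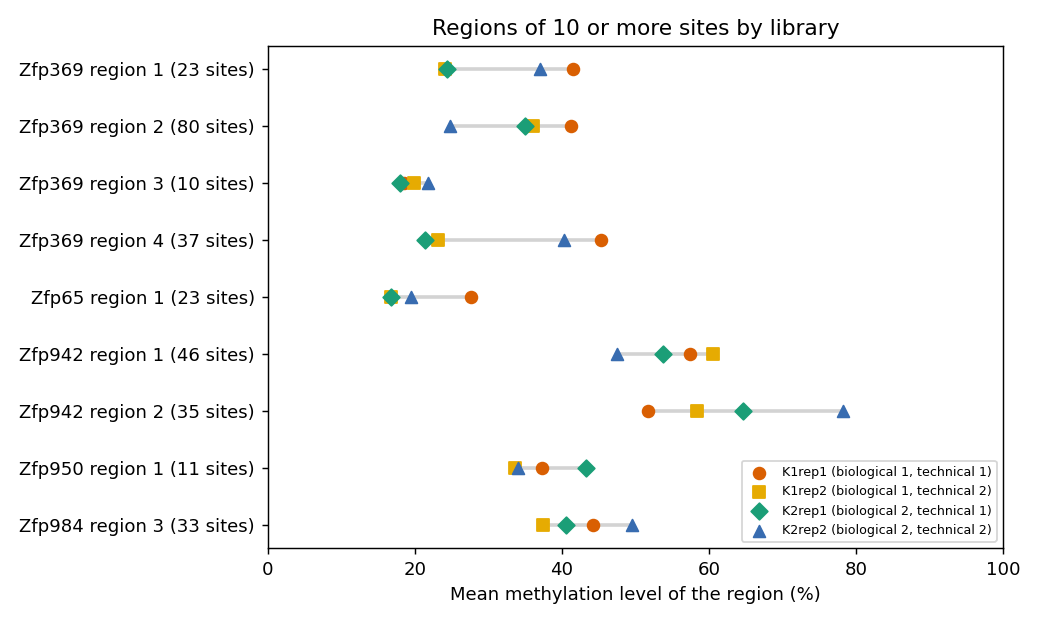
Mean level in percent on the horizontal axis of each region with 10 or more sites in the 6 Zfp genes; coloured symbols are the 4 libraries and the grey line joins the lowest and the highest. K1rep1 and K2rep2 are the upper pair in regions 1 and 4 of Zfp369, in Zfp65 and in region 3 of Zfp984, while the libraries of region 2 of Zfp942 run from 51.8% to 78.3%.

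Across the 13 regions the upper pair of libraries was most often K1rep1 and K2rep2, in 5 regions: regions 1 and 4 of Zfp369, region 3 of Zfp984, Zfp65 and Zfp971. The upper pair was a biological replicate in 3 regions, which were region 2 of Zfp369 and both regions of Zfp942; that is 23.1% of the 13, beside 34.0% of all 259 regions (88 regions). Over all 259 regions K1rep1 and K2rep2 were the upper pair in 26.3%, and these libraries also had the highest means over the whole table, 53.7% and 53.8% against 49.5% and 49.9%. For the 9 Zfp regions with 10 or more sites the median gap between biological means was 4.08 points, beside 3.98 points for all 146 such regions. Site by site, the technical replicates of the 6 genes differed by 14.7 points on average and libraries of different biological replicates by 13.8 points. The gap between biological replicates was thus no wider than the gap between technical replicates. Per gene the technical gap ran from 7.35 points in Zfp65 to 20.2 points in Zfp971.

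Reading the column names the other way, with the second number as the biological replicate, left each mean as it was. The SD fell from 3.55 to 0.621 points in Zfp971 and from 1.88 to 0.157 in Zfp984. It rose from 2.22 to 4.59 points in Zfp950 and from 1.64 to 2.47 in Zfp942. The library ranges do not depend on that reading, but they mix technical with biological replicates and measure neither error alone.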

How the data were processed

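RNA bisulfite sequencing measured poly(A) RNA of mast cells; 4 of 8 libraries entered the values. Per the file headers, the deposited values are methylation rates, a fraction from 0 to 1, at sites which the title line calls specific to Tet2-deficient cells. They were multiplied to percent. The aligner, site caller, coverage minimum and conversion rate were not given in the sources used here. Read numbers were not analysed, so depth is unknown. The submitters' processing notes name mm10 and GRCm38. Positions are printed as deposited.

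Sites were placed in RefSeq gene spans of GRCm38.p6 and joined up to 500 bases apart. Technical replicates were averaged first, and the SD is that of the 2 biological means. No groups or genes were tested against each other, since sites and genes were chosen on these values; Dixon's 95% criterion was used to look for a library apart from the others. All 6 genes are named, with their regions and their highest and lowest sites; the genes and lists were chosen with earlier results of these data known. Distances from a start use RefSeq's promoter table. Promoter windows were aligned globally (match 1, mismatch -1, gap opening -2, gap extension -0.5), and identity is the share of 300 bases. The averaging and joining steps were tested on simulated data. Bins, stretches and the removal of K1rep1 or Zfp369 were chosen after seeing the data. Python 3.11.15, numpy 2.4.6, pandas 2.3.3, matplotlib 3.10.9 and Biopython 1.88 were used.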

Additional observations from a re-analysis of the deposited data

Results flagged for a closer look

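A library far from the others was looked for by Dixon's criterion in 17 values (the joint level, the 6 genes and the regions of genes with several). Of these, 1 stood out. The criterion flags about 1 in 20 values by chance, so 1 of 17 is near the number that chance gives. The values are nested and the libraries are technical pairs, so neither are independent. In Zfp369 the library K1rep1 had a mean level of 40.8%, while the others lay between 28.9% and 30.3%, a gap of 0.885 times the range of all 4. K1rep1 was the highest library in regions 1, 2 and 4 of that gene and not in region 3. Without K1rep1, Zfp369 stood at 29.8% and the 6 genes together at 38.9%. The cause was not tested.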

How the results depend on the processing

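The joint level of 40.5% became 38.95% without sites that have another listed site within 10 bases, 37.5% as a median over sites, 48.0% with at least 20% in every library, 47.6% without Zfp369 and 38.9% without K1rep1. Without clustered sites Zfp942 stood at 48.7%, Zfp971 at 45.8%, Zfp950 at 33.5% and Zfp65 at 39.98%, the last on 1 site, so that Zfp65 was then no longer the lowest gene. These values rest on few sites. The sites left out were 74 of 81 in Zfp942, 6 of 9 in Zfp971, 8 of 11 in Zfp950 and 293 of 319 in all. With at least 20% in every library Zfp369 stood at 39.6% on 72 sites, Zfp65 at 31.3% on 3 sites and Zfp971 at 56.8%, as fewer low sites must give. Zfp942 was 56.8% as a median and Zfp984 40.8% with each region counted once. Merging positions within 10 bases left 80 of 319 sites: 34 in Zfp369, 23 in Zfp942, 10 in Zfp984, 5 each in Zfp950 and Zfp971 and 3 in Zfp65. A joining distance of 100 bases gave 21 regions in place of 13, with 6 in Zfp942 and 2 in Zfp65, and joining up to 1000 bases gave 2 in Zfp369. Leaving out a biological replicate moved the joint level to between 39.6% and 41.4%, which by construction is less than its SD. Extending the spans of the 6 genes by 1 kb added no site to them. No paired analysis was possible because wild-type levels were not used here, and the coverage settings were not run. What depth limits cannot be stated.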

Other observations

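Spacing between listed sites of the 6 Zfp genes was close to that of the table as a whole. Neighbours within a region were directly adjacent in 20.9% of 306 cases, beside 23.0% of 8233 cases over all sites, and the median spacing was 4 bases in both. Zfp950 had 0 adjacent pairs, and region 2 of Zfp369 had 17.

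Levels of single sites varied between libraries by at least 30 points at 48 of the 81 sites of Zfp942 (59.3%), at 50 of the 150 sites of Zfp369 (33.3%) and at 1 of the 23 sites of Zfp65. Over all listed sites this was 31.8%. Across the sites of a gene, Pearson's r between the levels of 2 libraries ran from 0.137 to 0.607 in Zfp369 (150 sites), from 0.207 to 0.505 in Zfp942 (81 sites) and from 0.416 to 0.815 in Zfp65 (23 sites). It ran from -0.11 to 0.759 in Zfp984 (45 sites), from 0.000765 to 0.628 in Zfp950 (11 sites) and from 0.45 to 0.942 in Zfp971 (9 sites). Over the 319 sites together it ran from 0.542 to 0.730, and over all 8492 sites from 0.759 to 0.801. The r value depends on how widely levels vary between sites. The SD between sites was 5.35 points in Zfp950 to 16.6 in Zfp971, against 24.2 over all sites, so these r values are not directly comparable. These are correlations across sites, which share reads and are not replicates.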
